A study of Mus musculus with 6 samples.

Results

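The mitochondrial ribosomal protein genes studied here are the mouse genes whose symbol begins with Mrpl or Mrps followed by a digit, the names given to proteins of the large and the small subunit of the mitochondrial ribosome. They were found through the array's annotation, among probes with a single gene symbol, and the brightest probe on average over the arrays stood for each gene. This gave 76 genes of the 18193 on the array, and all 76 were bright enough to be tested, among 10916 tested genes in all. Another 2 genes, Mrpl30 and Mrpl53, were matched only by probes that carry several symbols and were left out.

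Expression was measured on 6 arrays, 2 for each of 3 stages of thymocyte development: CD4+CD8+ double-positive cells (DP), cells with intermediate CD4 that keep CD8 (CD4intCD8+), and CD8 single-positive cells (CD8SP). Every group came from mice that were N15 TCR tg+/+, RAG-2-/- and, at the MHC, H-2b, aged 5 to 6 weeks, 6 animals matched for age and sex, whose cells were stained for CD4 and CD8 and sorted in a pair of independent experiments. N15 is a T-cell receptor that recognises MHC class I. Without RAG-2 the mice cannot rearrange receptor genes of their own, so their T cells carry the transgenic receptor, and no group without these alleles was compared here. The labels do not tie an array to particular animals, so p-values rest on the spread between the arrays alone, which may be partly technical.

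Mitochondria hold a small genome that encodes core subunits of the respiratory chain and of ATP synthase, and they translate it on ribosomes of their own. The RNA of these ribosomes comes from the mitochondrial genome, whereas all of their proteins are encoded in the nucleus, made in the cytosol and imported. Part of the proteins descend from bacterial ribosomal proteins, and the others were added in the mitochondrial lineage. Thymocytes that receive a signal through their receptor leave the double-positive stage, at which most cells are small and resting, and mitochondrial translation is known to be needed when T cells enlarge and divide.

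The labelled stages were checked against marker genes. The Cd4 probe read 351 and 515 on the DP arrays and between -68.6 and 11.8 on the other 4, so that CD4intCD8+ cells, sorted for surface CD4, had no Cd4 signal above background. Rag1, which is expressed while receptor genes are rearranged, read 1046 and 1054 on the DP arrays and between 57.8 and 134 on the others. Ccr7, a chemokine receptor of mature thymocytes, read 73.2 and 139 in DP cells, 164 and 295 in CD4intCD8+, and 343 and 496 in CD8SP. Rag2 itself read 137 and 193 in DP and between 2.06 and 30.1 elsewhere, and whether its probe lies inside the deletion was not known here, so that it checks nothing. Of the 7 markers of mature CD8 thymocytes, 1 rose and 2 fell in CD4intCD8+, and 4 rose and 2 fell in CD8SP. The 2 that fell were Cd8a and Cd8b1, which DP cells also express, and the summed signal of the list was 7868 and 8074 in DP, 6990.5 and 4565 for CD4intCD8+ and 7179 and 6611 for CD8SP. The summed signals of the 4 B-cell, 5 myeloid, 5 dendritic and 3 natural-killer markers on the array lay between 42.7 and 227 on every array, against 4205 to 10194 for the list of DP markers. In bulk RNA a change in the share of cells that express a gene and a change in the RNA per cell cannot be told apart, and values scaled to a common level per array do not show changes in total RNA per cell.

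Most mitochondrial ribosomal protein genes were higher in CD4intCD8+ than in DP thymocytes, by a modest amount. The log2 change was above 0 for 67 of the 76 genes, with a median of 0.32 and an interquartile range of 0.16 to 0.48, against a median of 0.01 over all tested genes. With limma and Benjamini-Hochberg adjustment over all tested genes, 14 of the 76 rose (18.4%) and 0 fell at an adjusted p under 0.05, while 6.86% of all tested genes rose and 4.84% fell, 11.7% in all. At an unadjusted p under 0.05 there were 36 higher and 1 lower, 47.4% and 1.32% of the genes, against 16.0% and 12.8% of all tested genes. None of the called genes changed by as much as 2-fold, whereas 301 of the 1277 genes called over the whole array did. With the replicate number as a block, 32 of the 76 rose and 0 fell, where 13.3% of all tested genes rose and 10.1% fell.

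The number of called genes depended on single arrays. Without the replicate 1 DP array 0 of the 76 were called (1.85% of all tested genes rose), without the replicate 2 DP array 2 were (1.03%), and without the replicate 2 CD4intCD8+ array 0 were (2.55%). The median change stayed at 0.23, 0.40 and 0.26 in these 3 fits. The ratio of the 3' to the 5' actin probe, a measure of how far RNA or labelled cRNA is degraded or cut short, was 1.98 and 2.14 for the DP arrays, 2.37 and 3.47 for CD4intCD8+ and 2.28 and 2.62 for CD8SP. With this ratio as a covariate the median change was 0.19, 0 of the 76 were called, and 2.18% of all tested genes rose. Its part in the result cannot be told apart from stage with 6 arrays.

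**Figure D1:**
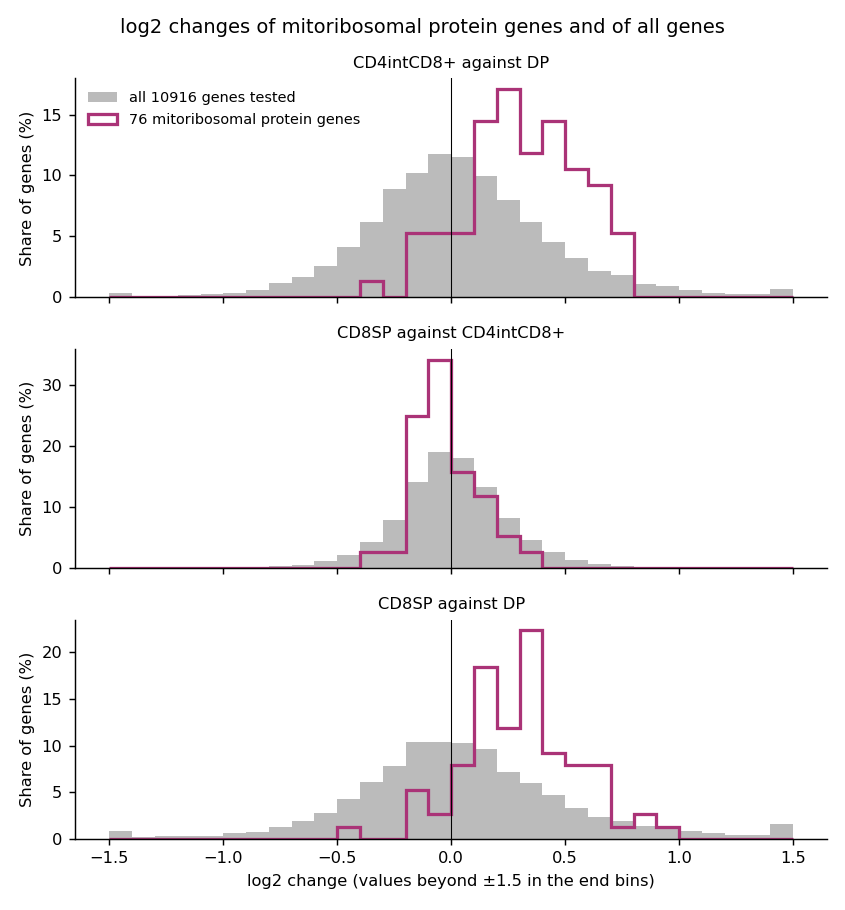
Histograms of log2 changes, as the share of genes in bins of 0.1, for all tested genes (grey) and the 76 mitochondrial ribosomal protein genes (purple line), in 3 comparisons of stages. The purple line is shifted to the right of the grey bars against DP (medians 0.32 and 0.30) and not between CD8SP and CD4intCD8+ (median -0.04).

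The stages separated in both replicates for most of these genes. Both CD4intCD8+ arrays lay above both DP arrays for 58 of the 76 genes (76.3%) and below them for 4 (5.26%). Of all tested genes, 30.8% did so upwards and 27.9% downwards. Within replicate 1, 70 of the 76 were higher in CD4intCD8+, with a median change of 0.36, and within replicate 2, 63 were, with a median of 0.30. A gene was higher within both for 62 of the 76 (81.6%), against 37.8% of all tested genes. Across the 76 genes, the changes within replicate 1 and replicate 2 had a Pearson correlation of 0.71, and across all tested genes 0.69. These points share the arrays, so the correlation is a description only.

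**Figure D2:**
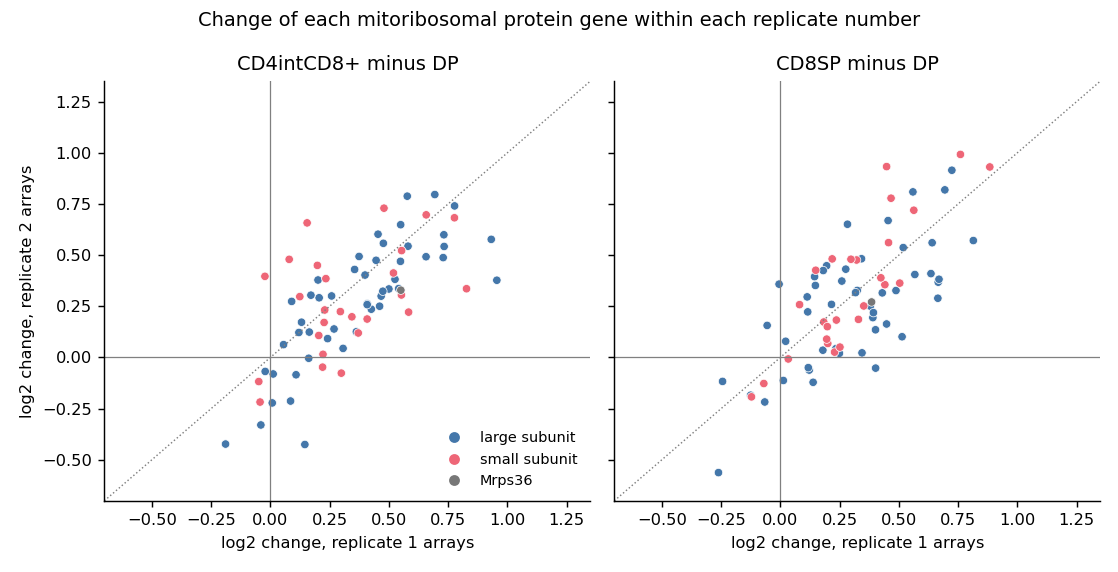
Each point is 1 of the 76 genes, placed by its log2 change from DP on the replicate 1 arrays (horizontal) and on the replicate 2 arrays (vertical), for CD4intCD8+ (left) and CD8SP (right), with large-subunit genes in blue, small-subunit genes in red and Mrps36 in grey. In each panel 62 of the 76 points lie in the upper right quadrant, and the dotted line marks equal change.

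Replicate number also moved these genes. They were higher on the replicate 2 array than on the replicate 1 array for 66 of 76 genes in DP cells, 59 in CD4intCD8+ and 61 in CD8SP, against 47.7%, 54.6% and 53.0% of all tested genes. The mean log2 level over the 76 genes was 8.23 and 8.42 in DP, 8.59 and 8.70 for CD4intCD8+ and 8.54 and 8.71 for CD8SP. The mean over all tested genes stayed between 7.21 and 7.28. The difference between the DP arrays was thus about as large as that from the replicate 2 DP array to the replicate 1 CD4intCD8+ array.

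Among large-subunit genes, 11 of 49 rose from DP to CD4intCD8+, where 6.86% of all tested genes did, and the median change was 0.34. Mrpl19, a protein with a bacterial relative, read 143 and 168 in DP cells, 249 and 284 in CD4intCD8+, and 235 and 300.2 in CD8SP. All 4 later arrays lay above both DP arrays, and the CD4intCD8+ and CD8SP ranges overlapped. The change from DP was 0.76 ± 0.16 (SE, 2 arrays per group; limma adjusted p = 0.0212) in CD4intCD8+ and 0.76 ± 0.16 (adjusted p = 0.0127) in CD8SP, each 1.69-fold. Its 3 probes above the filter on dim genes changed by 0.76, 0.81 and 0.70 in CD4intCD8+ and by 0.76, 0.76 and 0.32 in CD8SP, so that the third probe changed less in CD8SP.

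Mrpl17, a protein at the rim of the tunnel through which the new protein leaves the ribosome, showed the same order of arrays. It read 194 and 207 in DP cells, 317 and 364 in CD4intCD8+, and 324 and 396 in CD8SP. The groups did not overlap with DP, and the change was 0.74 ± 0.15 (adjusted p = 0.0152) in CD4intCD8+ and 0.82 ± 0.15 (adjusted p = 0.00551) in CD8SP. Mrpl47, of the same rim and known from bacteria as L29, read 257 and 337 in DP cells, 431 and 494 in CD4intCD8+, and 403 and 450.0 in CD8SP. Here the lowest later array, at 403, stood above the higher DP array, and the changes were 0.64 ± 0.16 (adjusted p = 0.0335) and 0.52 ± 0.16 (adjusted p = 0.0472).

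Some genes had their highest mean in the intermediate cells, although none of the 76 was called between CD4intCD8+ and CD8SP. Mrpl48, a mitochondria-specific protein of the central protuberance, read 188 and 266 in DP cells, 363 and 400.0 in CD4intCD8+, and 302 and 349 in CD8SP. Both CD4intCD8+ arrays were above all others, and the change from DP was 0.75 ± 0.18 (adjusted p = 0.0279) in CD4intCD8+ and 0.53 ± 0.18 (adjusted p = 0.0671) in CD8SP. Mrpl27, also of the central protuberance, read 472 and 533 in DP cells, 694 and 839 in CD4intCD8+, and 524 and 682 in CD8SP. The CD8SP arrays overlapped with DP, and the changes were 0.60 ± 0.16 (adjusted p = 0.0411) and 0.25 ± 0.16 (adjusted p = 0.308). Mrpl13, with a bacterial relative, read 403 and 527 in DP cells, 673 and 801 in CD4intCD8+, and 642 and 645 in CD8SP, and changed by 0.67 ± 0.15 (adjusted p = 0.0249) and 0.48 ± 0.15 (adjusted p = 0.0550). Mrpl42, a mitochondria-specific protein, read 498 and 549 in DP cells, 746 and 951 in CD4intCD8+, and 685 and 875 in CD8SP. Its arrays of the later stages overlapped. Its rise was 0.68 ± 0.16 (adjusted p = 0.0270) in CD4intCD8+ and 0.56 ± 0.16 (adjusted p = 0.0371) in CD8SP.

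The remaining large-subunit genes that rose in CD4intCD8+ were Mrpl1 (0.67 ± 0.16, adjusted p = 0.0332), part of the stalk near the exit site for tRNA, Mrpl16 (0.61 ± 0.15, adjusted p = 0.0295), which lies near the site where peptide bonds are made, Mrpl35 (0.52 ± 0.13, adjusted p = 0.0326) and Mrpl11. Mrpl11, at the base of the stalk that recruits elongation factors, read 376 and 397 in DP cells, 553 and 552 in CD4intCD8+, and 559.9 and 527 in CD8SP. The later 4 arrays lay close together above DP, and the changes were 0.51 ± 0.11 (adjusted p = 0.0242) and 0.49 ± 0.11 (adjusted p = 0.0180). Mrpl12, the stalk protein itself and a reported partner of the mitochondrial RNA polymerase, read 378 and 459 in DP cells, 537 and 581 in CD4intCD8+, and 544 and 669 in CD8SP. It changed by 0.42 ± 0.15 (adjusted p = 0.0988) in CD4intCD8+ and rose by 0.53 ± 0.15 (adjusted p = 0.0359) in CD8SP.

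**Figure D3:**
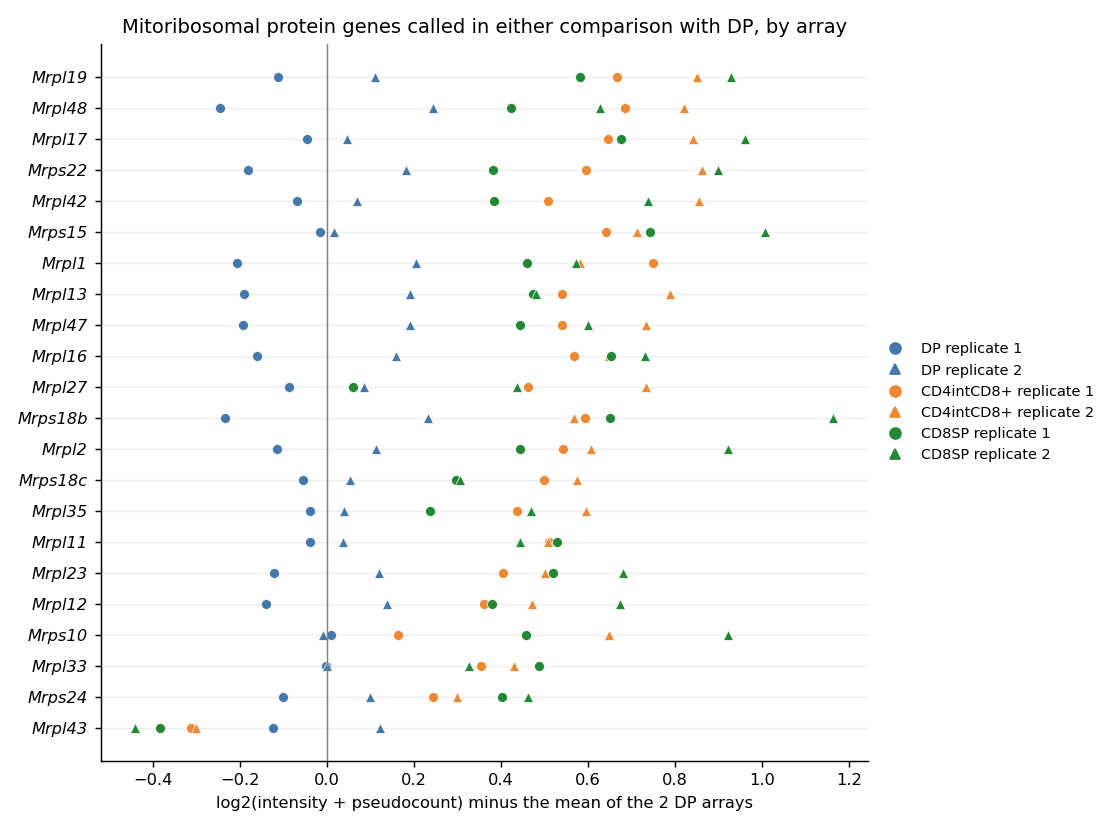
Each row is 1 of the 22 mitochondrial ribosomal protein genes called in CD4intCD8+ or CD8SP against DP. Each symbol is 1 array, placed by its log2 level minus the mean of the 2 DP arrays of that gene, coloured by stage and shaped by replicate number. The later arrays lie to the right of the DP arrays in most rows, Mrpl43 lies to the left, and triangles often lie to the right of circles of the same colour.

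Among small-subunit genes, 3 of 26 rose in CD4intCD8+, where 6.86% of all tested genes did, with a median of 0.28. Mrps15, which binds the ribosomal RNA of the small subunit, read 232 and 238 in DP cells, 370 and 389 in CD4intCD8+, and 397 and 479 in CD8SP. Its DP arrays differed little, every later array was above them, and it had the smallest adjusted p of the group in CD8SP: the changes were 0.68 ± 0.14 (adjusted p = 0.0155) and 0.88 ± 0.14 (adjusted p = 0.00267). Mrps22, a mitochondria-specific protein, read 211 and 273 in DP cells, 366 and 441 in CD4intCD8+, and 314 and 453 in CD8SP, and changed by 0.73 ± 0.20 (adjusted p = 0.0478) and 0.64 ± 0.20 (adjusted p = 0.0532).

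The 3 paralogs of bacterial S18 were followed separately. In structures of the ribosome Mrps18a is found in the large subunit, and Mrps18b and Mrps18c in the small. Mrps18b read 124 and 173 in DP cells, 225 and 220 in CD4intCD8+, and 234 and 336 in CD8SP, with a change of 0.58 ± 0.21 (adjusted p = 0.0999) in CD4intCD8+ and a rise of 0.91 ± 0.21 (adjusted p = 0.0157) in CD8SP, the largest among the 76. Mrps18c read 440.5 and 475 in DP cells, 649 and 685 in CD4intCD8+, and 564 and 567 in CD8SP, with a rise of 0.54 ± 0.11 (adjusted p = 0.0185) in CD4intCD8+ and a change of 0.30 ± 0.11 (adjusted p = 0.0932) in CD8SP. Mrps18a read 255 and 321 in DP cells, 329 and 351 in CD4intCD8+, and 297 and 385 in CD8SP, overlapping between DP and CD8SP, and changed by 0.24 ± 0.17 (adjusted p = 0.378) and 0.24 ± 0.17 (adjusted p = 0.366). With the replicate block Mrps18b also passed in CD4intCD8+ (adjusted p = 0.0189) and Mrps18c in CD8SP (adjusted p = 0.0394), so that both passed in both comparisons, and Mrps18a passed in neither. The difference between the paralogs was not tested.

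From DP to CD8SP, 14 of the 76 genes rose and 1 fell, while 11.5% of all tested genes rose and 8.35% fell, 19.8% in all. The log2 change was above 0 for 69 genes and the median was 0.30, against 0.01 over all tested genes. Both CD8SP arrays lay above both DP arrays for 51 genes (67.1%), where 32.4% of all tested genes did so. The change was above 0 within both replicates for 62 genes (81.6%), against 39.2% of all tested genes. With the replicate number as a block 30 rose and 1 fell, where 16.9% and 13.1% of all tested genes did. Among the genes described above, the block brought Mrpl12 (adjusted p = 0.0155) past the threshold in CD4intCD8+, and Mrpl48 (0.00976), Mrpl13 (0.00911), Mrpl1 (0.0222), Mrpl35 (0.0203) and Mrps22 (0.00208) in CD8SP. The DP arrays are shared with the comparison above, so the similar medians are not independent. Without the replicate 1 DP array 2 of the 76 rose (5.87% of all tested genes did), and without the replicate 2 CD8SP array 2 rose (5.65%), Mrpl17 and Mrps15 each time, so that in these fits the share among the 76 was below that among all genes.

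Besides the genes described above, Mrps10 (0.69 ± 0.20, adjusted p = 0.0434), of the head of the small subunit, Mrpl2 (0.68 ± 0.17, adjusted p = 0.0253), near the site of peptide bond formation, and Mrpl23 (0.60 ± 0.13, adjusted p = 0.0128), at the rim of the exit tunnel, rose in CD8SP. Mrpl16 rose by 0.69 ± 0.15 (adjusted p = 0.0109), Mrps24 by 0.43 ± 0.13 (adjusted p = 0.0409) and Mrpl33 by 0.41 ± 0.11 (adjusted p = 0.0324). Mrpl43, a mitochondria-specific large-subunit protein, was the only gene of the 76 that fell, and 6 others had a change below 0 in CD8SP without passing. It read 531 and 631 in DP cells, 465 and 469 in CD4intCD8+, and 442 and 426 in CD8SP, so both later stages lay below DP without overlap. Its change was -0.31 ± 0.13 (adjusted p = 0.146) in CD4intCD8+ and -0.41 ± 0.13 (adjusted p = 0.0490) in CD8SP, close to the threshold. Its call in CD8SP was kept by the replicate block, both other pseudocounts, a stricter filter on dim genes and another choice of probe, and was lost in the other fits run, quantile normalization and the removal of any single array among them.

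Other genes of named interest did not pass in either comparison with DP without the block. Mrps12, of the decoding centre, changed by 0.23 ± 0.18 in CD4intCD8+ (adjusted p = 0.428), Mrpl45, which anchors the ribosome near the inner membrane, by 0.18 ± 0.14 (adjusted p = 0.437), Mrpl41 by 0.38 ± 0.14 (adjusted p = 0.112) and Mrps30, a large-subunit protein despite its name, by 0.28 ± 0.14 (adjusted p = 0.231). Mrps36, which is now known as a part of the 2-oxoglutarate dehydrogenase complex and not of the ribosome, changed by 0.44 ± 0.16 (adjusted p = 0.108). With the replicate block Mrpl41 (adjusted p = 0.0386) and Mrps36 (adjusted p = 0.0219) passed in CD4intCD8+. Of the 62 genes not called in CD4intCD8+, 53 had a change above 0, and the range was -0.31 to 0.60. An adjusted p above the threshold does not show that a gene was unchanged: the median SE was 0.14.

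Genes with a bacterial relative and mitochondria-specific genes were counted apart. In CD4intCD8+, 11 of 47 with a bacterial relative rose, with a median of 0.34, and 3 of 28 mitochondria-specific genes rose, with a median of 0.26. In CD8SP the counts were 13 of 47, with a median of 0.32, and 1 of 28 with 1 that fell, with a median of 0.18. Over all tested genes 6.86% rose in CD4intCD8+, and in CD8SP 11.5% rose and 8.35% fell. Genes that narrowly missed in CD8SP include the mitochondria-specific Mrps22 and Mrpl48 (limma adjusted p = 0.0532 and 0.0671). Mrpl13, with a bacterial relative, also did (0.0550). By position, 1 of 3 genes of the stalk and its base, 2 of 6 of the central protuberance, 2 of 8 at the tunnel rim and 0 of 7 of the small-subunit head rose in CD4intCD8+. In CD8SP these counts were 2, 0, 3 and 1. The lists by position may be incomplete, and Mrps24, which rose in CD8SP, was in none of them. No test of the differences between any of these groups was made.

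Between CD4intCD8+ and CD8SP, 0 of the 76 genes were called by limma, where 13 of all tested genes (0.119%) were, and with the replicate block 0 were, where 2.08% were. At an unadjusted p under 0.05 there was 1, Mrps34 of the small subunit, which read 411 and 353 in CD4intCD8+ and 474 and 480.3 in CD8SP, a change of 0.32 ± 0.13 (adjusted p = 0.462). The median change was -0.04, with 27 of 76 above 0, so that the second step had no common direction like the first.

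CD4intCD8+ was the stage with the highest mean for 42 of the 76 genes, CD8SP for 27 and DP for 7. Against the mean of the other stages, limma called 0 of the 76 in CD4intCD8+, where 0.00916% of all tested genes (1) were called, 16 (21.1%) were higher at an unadjusted p under 0.05 against 6.79% of all tested genes, and with the replicate block 4 rose, where 1.25% of all tested genes did. These 4 were Mrpl48 by 0.49 ± 0.11 (adjusted p = 0.0496), Mrpl27 by 0.47 ± 0.09 (adjusted p = 0.0295), Mrpl42 by 0.40 ± 0.09 (adjusted p = 0.0451) and Mrps18c by 0.39 ± 0.08 (adjusted p = 0.0484), all with the block.

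The promoters of these genes were read from RefSeq's mouse assembly GRCm38.p6, in windows of 250 bases before to 50 after each start, and 67 of the 76 genes had 73 windows. A search on both strands used the motif of NRF1 (GCGC, any base, then TGCGC), a factor that activates many nuclear genes for mitochondrial proteins, and a motif of GABP (CCGGAAGT), another such factor. The 150 bases before the start are shown for 5 genes as examples only, with the matches in capitals. Mrpl17 rose in both comparisons and Mrpl12 in CD8SP, each with an NRF1 match. No other gene that rose had an NRF1 match in its windows. Mrpl45 did not pass the test with a pair of NRF1 matches, and a further match at position 16 lies after its start, outside the stretch. Mrps22 rose in CD4intCD8+ with a GABP match, and Mrps15 had the smallest adjusted p of the 76 in CD8SP without either. The stretches are given 5' to 3' in the direction of the gene and end at the base before its start.
Mrpl17, chr7:105811088-105811237, minus strand: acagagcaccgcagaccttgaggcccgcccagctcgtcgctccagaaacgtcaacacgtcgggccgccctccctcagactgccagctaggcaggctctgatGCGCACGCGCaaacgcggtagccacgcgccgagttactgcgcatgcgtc
Mrpl12, chr11:120484487-120484636, plus strand: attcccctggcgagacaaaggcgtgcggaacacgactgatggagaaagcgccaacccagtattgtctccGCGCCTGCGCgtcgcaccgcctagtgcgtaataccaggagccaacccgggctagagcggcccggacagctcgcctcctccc
Mrpl45, chr11:97315566-97315715, plus strand: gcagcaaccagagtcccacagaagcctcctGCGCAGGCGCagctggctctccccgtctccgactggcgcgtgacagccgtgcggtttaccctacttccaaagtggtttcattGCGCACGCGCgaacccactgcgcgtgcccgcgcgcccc
Mrps22, chr9:98601680-98601829, minus strand: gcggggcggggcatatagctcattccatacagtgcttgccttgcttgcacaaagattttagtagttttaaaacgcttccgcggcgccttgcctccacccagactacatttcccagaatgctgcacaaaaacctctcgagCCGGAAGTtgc
Mrps15, chr4:126046778-126046927, plus strand: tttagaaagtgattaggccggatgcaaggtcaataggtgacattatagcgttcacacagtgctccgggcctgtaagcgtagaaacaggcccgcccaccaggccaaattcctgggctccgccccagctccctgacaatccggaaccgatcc

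The NRF1 motif was present in 12 of the 73 windows (16.4%), against 9.81% of the windows of all tested genes and 4.60% of all 32851 windows. The GABP motif was present in 12 of 73 (16.4%), against 8.03% and 3.89%. The YY1 motif AAGATGG, which can lie at the start of genes for mitochondrial and ribosomal proteins, was in 13 of 73 (17.8%), against 7.29% and 6.34%. The E-box CACGTG, which Myc can bind, was in 7 of 73 (9.59%), against 9.76% and 7.15%, and ACTACAA, part of the ZNF143 motif, was in 5 of 73 (6.85%), against 4.13% and 3.24%. The median GC content was 58.7% in the windows of these genes, 60.3% in those of tested genes and 52.7% in all windows.

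The 24 windows of genes that rose in either comparison belong to 19 genes, since a gene with several starts has several windows. Among these 24, 2 held the NRF1 motif, 5 the GABP motif and 4 the E-box. The E-box count includes overlapping windows of Mrpl2, with CACGTG at -131, -139 and -147 from the start, so it overstates the number of promoters. The E-box count over all windows, given above, includes them too. Among the other 49 windows the counts were 10, 7 and 3. These are matches of letters and say nothing about whether a factor binds.

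The proteins that work with this ribosome were counted from lists of related genes. Of 33 tested factors for ribosome assembly and for processing ribosomal RNA, 6 rose and 0 fell in CD4intCD8+, with a median of 0.17. In CD8SP 8 rose, with a median of 0.29. Over all tested genes 6.86% and 11.5% rose in these comparisons. C1qbp, a mitochondrial matrix protein that binds RNA and is needed for translation there, read 818 and 821 in DP cells, 1445 and 1612 in CD4intCD8+, and 1616 and 2057 in CD8SP. Its arrays did not overlap with DP, and it rose by 0.89 ± 0.12 (adjusted p = 0.00525) and 1.15 ± 0.12 (adjusted p = 0.00050). Slirp, which stabilises mitochondrial messenger RNAs together with Lrpprc, rose by 0.90 ± 0.17 (adjusted p = 0.0128) and 0.80 ± 0.17 (adjusted p = 0.0115). Tfb1m, which methylates the small-subunit ribosomal RNA, rose by 0.82 ± 0.20 and 0.88 ± 0.20. Fastkd2, an RNA-binding protein of mitochondrial RNA granules, rose by 0.83 ± 0.15 and 0.81 ± 0.15, and in CD8SP Noa1, a GTPase of small-subunit assembly, rose by 0.89 ± 0.19 and Rcc1l by 0.98 ± 0.19.

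Among 16 tested mitochondrial translation factors, 0 were called in CD4intCD8+ (11.7% of all tested genes were) and 1 rose in CD8SP (11.5% did). That was Gfm1, the elongation factor that moves the ribosome along the message, which read 139 and 148 in DP cells, 192 and 279 in CD4intCD8+, and 199.8 and 265 in CD8SP, a rise of 0.66 ± 0.20 (adjusted p = 0.0488). The elongation factor Tufm changed by -0.14 ± 0.12 and 0.05 ± 0.12, its exchange factor Tsfm by -0.02 ± 0.15 and -0.13 ± 0.15, and the initiation factor Mtif2 by 0.38 ± 0.15 and 0.30 ± 0.15, none of which passed. Of the 5 ribosomal proteins that go by other symbols, Chchd1 rose by 0.46 ± 0.11 (adjusted p = 0.0300) in CD4intCD8+ and 0.37 ± 0.11 (adjusted p = 0.0451) in CD8SP. Gadd45gip1 rose by 0.63 ± 0.17 (adjusted p = 0.0303) in CD8SP, where Dap3, of the small subunit, fell by 0.39 ± 0.10 (adjusted p = 0.0252).

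Genes that express and copy the mitochondrial genome were called in both directions in CD8SP. Of 22, 0 rose and 1 fell in CD4intCD8+, where 6.86% of all tested genes rose and 4.84% fell. In CD8SP 4 rose and 2 fell, where 11.5% and 8.35% of all tested genes did. Polg, the catalytic subunit of the mitochondrial DNA polymerase, read 367 and 316 in DP cells, 195 and 216 in CD4intCD8+, and 184 and 184 in CD8SP, and fell by 0.71 ± 0.14 (adjusted p = 0.0141) and 0.87 ± 0.14 (adjusted p = 0.00315). Tfam, which packages mitochondrial DNA, read 493 and 494 in DP and between 500 and 564 later, and changed by 0.08 ± 0.11 and 0.17 ± 0.11.

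Among 15 regulators of mitochondrial biogenesis, Myc had the largest change. Myc read 43.8 and 27.8 in DP cells, 95.4 and 116 in CD4intCD8+, and 201 and 171 in CD8SP, without overlap between stages, and rose by 1.44 ± 0.21 (adjusted p = 0.00586) and 2.23 ± 0.21 (adjusted p = 0.000278). Pprc1, a coactivator related to PGC-1, rose by 0.54 ± 0.15 (adjusted p = 0.0477) and 0.87 ± 0.15 (adjusted p = 0.00443). Esrrg also rose in CD8SP, by 1.22 (limma adjusted p = 0.00918), although some of the other fits left it out as too dim. Gabpa, whose motif was searched above, changed by -0.08 ± 0.15 and -0.25 ± 0.15, its partner Gabpb1 by -0.28 ± 0.15 in CD4intCD8+ and fell by 0.62 ± 0.15 (adjusted p = 0.0178) in CD8SP. Nrf1 changed by -0.02 ± 0.16 and -0.03 ± 0.16, and Ppargc1a was too dim to be tested.

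Respiratory chain and ATP synthase subunits, 75 tested, had a median of 0.18 in CD4intCD8+, where 8 rose and 0 fell, and 0.12 in CD8SP, where 13 rose and 2 fell. Over all tested genes, 6.86% rose and 4.84% fell in CD4intCD8+, and 11.5% rose and 8.35% fell in CD8SP. Cytosolic ribosomal proteins, 46 tested, had medians of 0.05 and -0.00, and 10 and 11 rose. These counts are larger shares than over all tested genes, although the medians lay near 0. They include Rpl22l1, Rpl3l, Rps27l and Rps4l, which are named as relatives of other ribosomal proteins. The cytosolic ribosomal proteins include many bright probes, and array probes for them can match pseudogenes and close copies. The members of the proliferation list, markers of cells that copy DNA or divide, had medians of 0.74 and 0.69, and 14 and 13 of 24 rose. Their median log2 level was 8.58 and 8.63 in DP, 9.18 and 9.74 for CD4intCD8+ and 9.11 and 9.54 for CD8SP. This level was higher in both later stages and on each replicate 2 array, as the mean of the mitochondrial ribosomal protein genes was. The gap between replicates was smallest in DP for the proliferation list, but largest in DP for those genes. The part of proliferation in the result was not tested.

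**Figure D4:**
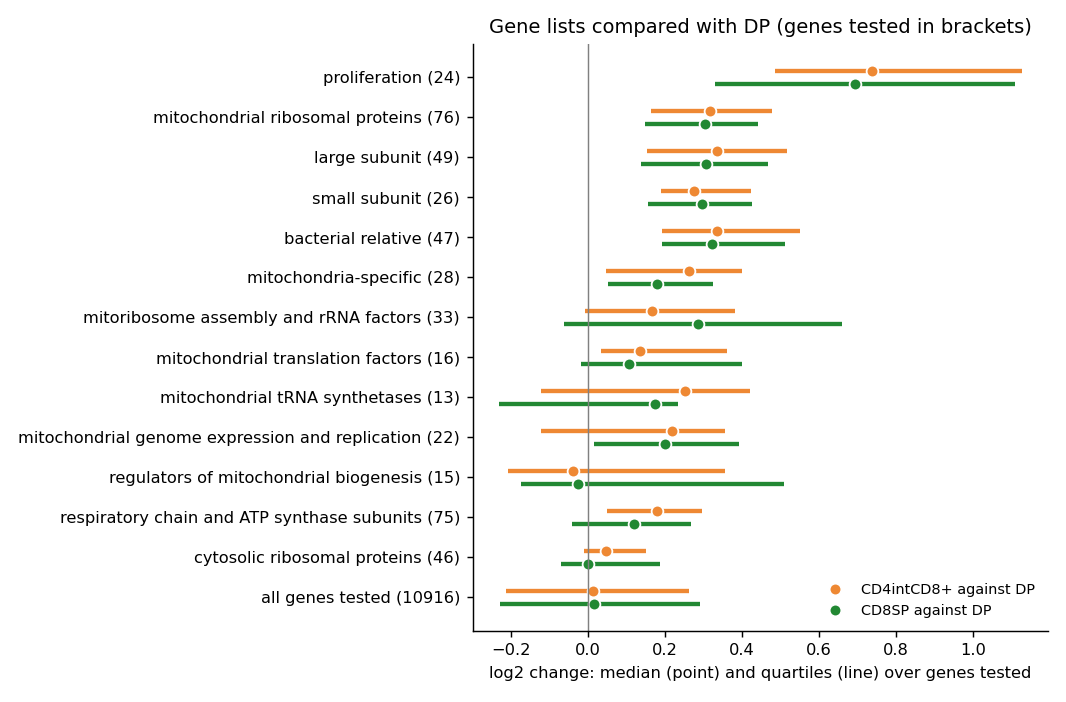
Medians (points) and quartiles (lines) of the log2 change from DP over the tested genes of each list, for CD4intCD8+ (orange) and CD8SP (green), with the number of tested genes in brackets. The mitochondrial ribosomal protein genes have medians of 0.32 and 0.30, above those of cytosolic ribosomal proteins (0.05 and -0.00) and below those of the proliferation list (0.74 and 0.69).

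Several genes have more than 1 probe, and dim probes often went their own way. The 76 genes have 156 probes with a single symbol, 124 of them above the filter on dim genes, and 31 genes had more than 1 such probe. All of these probes had a change above 0 in 18 of the 31 genes in CD4intCD8+ and in 17 in CD8SP. When the probes of a gene were averaged instead, 3 of the 76 were called in CD4intCD8+ (4.02% of all tested genes rose) and 6 in CD8SP (7.99%).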

How the data were processed

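The authors' deposited table gives 1 intensity per probe and array; how it was computed and scaled was not stated in any label or header. Values below 0 were set to 0, log2(intensity + 5.84) was taken (5.84 is the 10th percentile of positive values), the brightest probe on average stood for each gene, and the dimmest 40% of genes by mean were left out. All 6 arrays were fitted with limma 3.58.1 (lmFit, eBayes with an intensity trend, R 4.3.3), stage being the only term, and p-values were adjusted by Benjamini-Hochberg over all 10916 genes. Each ± gives the SE of a log2 change; fold changes are on the log2(value + pseudocount) scale and understate changes of dim genes. The number of arrays limits the precision.

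Same-numbered arrays deviated together (correlations across genes 0.26, 0.30 and 0.21 after removing stage means), so the number was also used as a block. The labels speak of independent experiments but do not say whether the replicate number marks them, so the block is an alternative only. Named genes are, per comparison, the 10 largest changes among called genes, 10 anchors, and up to 4 called genes and anchors per related list. Mrpl27, Mrpl35, Mrps24, Mrpl33 and Mrps34 were chosen after their values were seen. The genes, lists and alternatives were chosen with earlier results of these data known. Promoters and names are from RefSeq (GRCm38.p6), and all 76 symbols matched.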

Additional observations from a re-analysis of the deposited data

How the results depend on the processing

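The count of mitochondrial ribosomal protein genes called against DP (14 in CD4intCD8+, 15 in CD8SP) depended on how it was made. It was 25 and 26 at an adjusted p under 0.1, where 2207 and 3026 of all 10916 tested genes passed, and 3 and 6 when a gene's probes were averaged (4.02% and 7.99% of all tested genes rose). It was 3 and 8 with no intensity trend (4.56% and 9.50%), close to the share among all genes, and 0 and 10 when the actin ratio entered the fit (2.18% and 10.8%). The replicate block assumes that arrays of the same number belong together, which the labels do not state. With it the counts were 32 and 31, where 23.5% and 30% of all tested genes were called. For CD4intCD8+ set against DP and CD8SP averaged, the count was 4 with the block (1.25% of all tested genes rose) and 0 without it. Without each array in turn the counts ranged from 0 to 16 in CD4intCD8+ and from 2 to 16 in CD8SP. Between CD8SP and CD4intCD8+ the count was 0 in every setting run. The block lost 0 of the 29 calls, the actin ratio 21, and leaving out the replicate 1 DP array 27. The median change stayed above 0 against DP in every setting run, from 0.19 to 0.40 in CD4intCD8+ and from 0.20 to 0.38 in CD8SP. The cause of these shifts was not tested. No called value changed sign. Signal over background limits the dim probes, and 2 arrays a stage cannot be tested for outlying arrays.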

Other observations

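Many of these genes lie head to head with a neighbour. Of the 67 genes with a RefSeq window, 25 (37.3%) had the start of another gene within 1000 bases on the opposite strand, pointing away, against 19.7% of tested genes and 12.3% of all genes. Mrpl46 and Mrps11, both mitochondrial ribosomal proteins, start 42 bases apart and changed by 0.40 and 0.20 from DP to CD4intCD8+. Of 16 tested partners that are not ribosomal proteins of this kind, 9 had a change above 0 in CD4intCD8+. Of the 16, 1 rose (Tcp1, a chaperonin subunit, beside Mrpl18) and 1 fell (Gga3, a sorting adaptor, beside Mrps7). These shares are near those over all tested genes, of which 6.86% rose and 4.84% fell. The median change of the partners was 0.08, beside 0.39 for the ribosomal protein genes they face. Mrpl43, which fell in CD8SP, faces Twnk, the helicase of mitochondrial DNA, at 116 bases, and Twnk changed by 0.30 in both comparisons without passing the test. These names were chosen after their values were seen.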
